A study of Mus musculus with 6 samples.

Results

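The genes of cytosolic DNA sensing by cGAS and STING were followed in DP42 cells, a mouse multiple myeloma line, in 3 culture conditions. They were chosen by name: Mb21d1, Tmem173, Ddx41, Zbp1, Tbk1, Irf3, Samhd1 and Trex1, with Mb21d1 written Cgas and Tmem173 written Sting1 in the array annotation and below. Of these 8 genes, 7 had a probe set that names 1 gene, with 1 such probe set each, and they are 7 of the 22180 genes measured in that way. Trex1, the exonuclease that degrades DNA in the cytosol, shares its only probe set with Atrip, so no value is given for it.

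Cells grew for 24 h without other cells, with mouse B cells (the control of the design text) or with mouse neutrophils, and each condition was measured on 2 arrays of total RNA. Co-cultured cells were sorted into their populations by flow cytometry before lysis. If cells cultured alone were not sorted, the partner cells and the sorting cannot be told apart in comparisons with culture alone. The neutrophil co-culture is labelled "neutrophils (IMC)", and its description reads myeloid cells. All groups share the same myeloma line, and no genotype, strain or age is given for the partner cells. It is not stated that replicate arrays hold independent cultures. The p-values therefore cover the spread between these arrays, and that spread may be technical. The title of the series concerns DNA released by marrow neutrophils, and these genes are the route by which a cell senses DNA in its cytosol.

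In this route cGAS binds double-stranded DNA and makes the cyclic dinucleotide cGAMP, which binds STING on the endoplasmic reticulum. STING then recruits the kinase TBK1, which phosphorylates the transcription factor IRF3, and IRF3 switches on interferon beta and other antiviral genes. Nucleases such as TREX1 and DNASE2 and the dNTP hydrolase SAMHD1 lower the amount of DNA or its precursors that could set off the route. Much of this regulation acts on proteins, through binding, phosphorylation and movement between membranes, and is not read by RNA arrays.

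No member passed limma's test over all genes in any comparison, and rose, fell and changed below mean passing it. In limma's test over all genes, with a threshold of 0.05 on the Benjamini-Hochberg adjusted p, 0 of 7 members rose and 0 fell in neutrophil co-culture against culture alone, where 0.131% of all genes rose and 1.36% fell. The count was 0 and 0 as well against B-cell co-culture, where 0.0316% of all genes rose and 0.0180% fell. It was 0 and 0 in B-cell co-culture against culture alone, where 0% of all genes rose and 0% fell. At an unadjusted p under 0.05, 3 members were higher with neutrophils than alone (Cgas, Ddx41 and Tbk1), 3 were higher with neutrophils than with B cells (Cgas, Sting1 and Tbk1), and 0 differed between B cells and alone. No member was lower at such a p, so these counts also hold for both directions together. Among all 22180 genes, 3923, 4449 and 869 had such a p in either direction in these 3 comparisons.

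**Figure D1:**
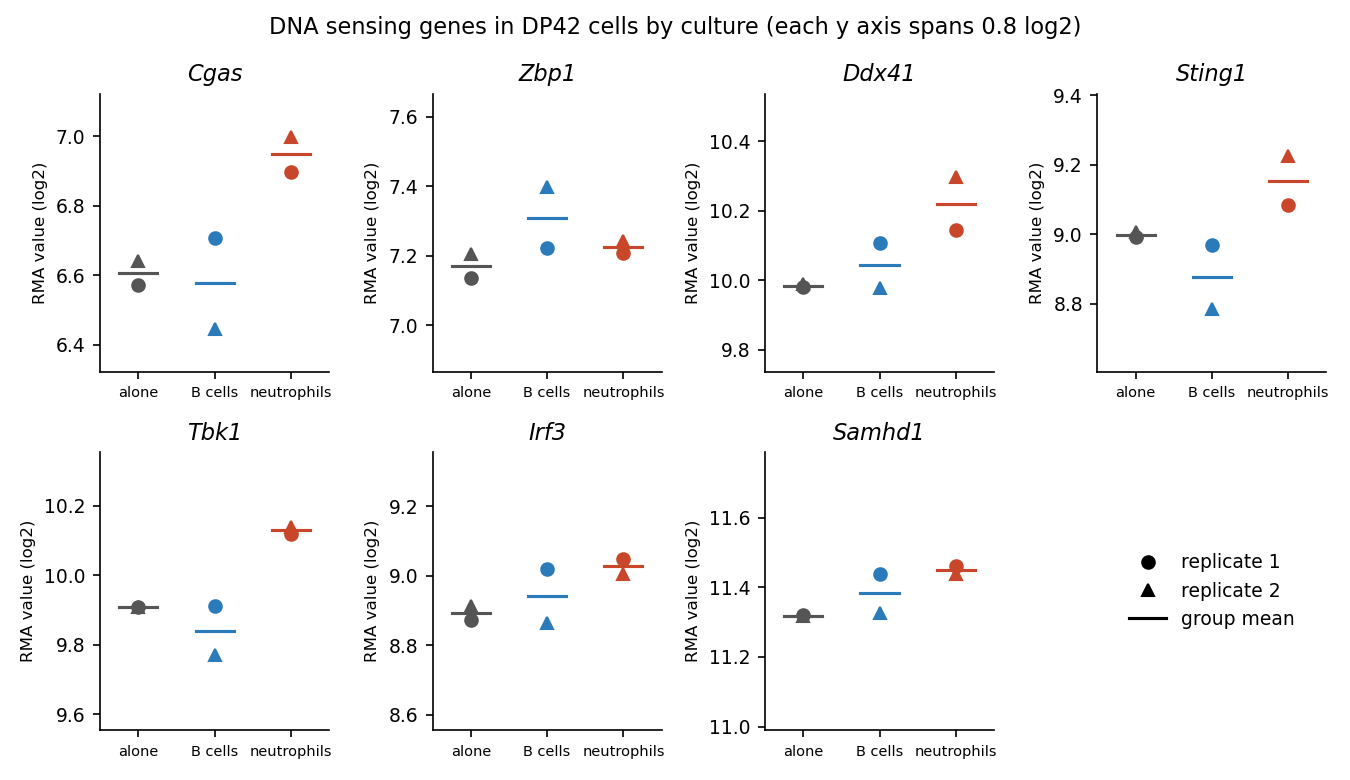
Value of each measured gene on each array (y axis, RMA value on the log2 scale, spanning 0.8 in every panel) by culture condition (x axis), with circles for replicate 1, triangles for replicate 2 and a line at the group mean. Cgas, Ddx41, Sting1, Tbk1 and, only just, Samhd1 stood higher on both neutrophil arrays than on the other 4. The B-cell pair was the widest pair for most genes.

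Among the sensors, Cgas gave the largest difference. It stood at 6.572 and 6.641 in cells cultured alone, at 6.706 and 6.446 beside B cells and at 6.898 and 6.998 beside neutrophils (log2, replicates 1 and 2). Both neutrophil arrays lay above the other 4, and the B-cell arrays lay on either side of the alone arrays. The difference between neutrophil co-culture and culture alone was 0.34 ± 0.11 (SE, n = 2 arrays a group), or 1.27-fold, with a 95% interval of 0.09 to 0.60 and an adjusted p of 0.183 in limma. Against B-cell co-culture it was 0.37 ± 0.11, or 1.29-fold, with an interval of 0.12 to 0.63 and an adjusted p of 0.175. B-cell co-culture and culture alone differed by -0.030 ± 0.11, within the gap between the B-cell arrays. Cgas lay below the median gene on every array, and the files give no detection call.

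Ddx41, a DEAD-box helicase described as a DNA sensor that acts through STING, stood at 9.98 and 9.99 alone, at 10.11 and 9.98 beside B cells and at 10.14 and 10.30 beside neutrophils. The neutrophil arrays were the highest of the 6, while the B-cell arrays overlapped those of cells alone. The differences were 0.24 ± 0.10 against alone (adjusted p = 0.272) and 0.18 ± 0.10 against B cells (adjusted p = 0.320), and neither passed.

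Zbp1, a sensor of Z-form nucleic acids that starts necroptosis and is itself known as an interferon-stimulated gene, stood at 7.14 and 7.20 alone, at 7.22 and 7.40 beside B cells and at 7.21 and 7.24 beside neutrophils. The highest array was a B-cell array, and the neutrophil arrays overlapped the B-cell range. The neutrophil difference was 0.055 ± 0.10 against alone (adjusted p = 0.770) and -0.084 ± 0.10 against B cells (adjusted p = 0.599). The interval against alone ran from -0.17 to 0.28.

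The adaptor Sting1 stood at 8.99 and 9.01 alone, at 8.97 and 8.78 beside B cells and at 9.08 and 9.22 beside neutrophils. The groups did not overlap: B-cell arrays were lowest and neutrophil arrays highest. The neutrophil difference was 0.16 ± 0.10 against alone (adjusted p = 0.443) and 0.28 ± 0.10 against B cells (95% interval 0.04 to 0.52, adjusted p = 0.217). B-cell co-culture minus culture alone was -0.12 ± 0.10, with an adjusted p of 0.9999.

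Downstream of STING, the kinase gene Tbk1 stood at 9.91 and 9.91 alone, at 9.91 and 9.77 beside B cells and at 10.12 and 10.14 beside neutrophils. Both neutrophil arrays were above the other 4, and the B-cell arrays, further apart than either other pair, overlapped those of cells alone. The neutrophil difference was 0.22 ± 0.10 against alone (adjusted p = 0.277) and 0.29 ± 0.10 against B cells (adjusted p = 0.191), short of the threshold in both.

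Irf3, which encodes the transcription factor, stood at 8.87 and 8.91 alone, at 9.02 and 8.86 beside B cells and at 9.05 and 9.01 beside neutrophils. One B-cell array lay inside the narrow neutrophil range and the other below both alone arrays. The neutrophil difference was 0.13 ± 0.10 against alone (adjusted p = 0.470) and 0.085 ± 0.10 against B cells (adjusted p = 0.584).

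Samhd1, which depletes the dNTP pool and restricts replication of viral DNA, stood at 11.32 and 11.32 alone, at 11.44 and 11.33 beside B cells and at 11.46 and 11.44 beside neutrophils. The 3 groups followed each other without overlap, but B-cell replicate 1 and neutrophil replicate 2 were nearly equal. The neutrophil difference was 0.13 ± 0.09 against alone (adjusted p = 0.458) and 0.068 ± 0.09 against B cells (adjusted p = 0.647).

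By group mean, neutrophil co-culture was highest for Cgas, Ddx41, Sting1, Tbk1, Irf3 and Samhd1, and B-cell co-culture was highest for Zbp1. No step between neighbouring groups in these orders passed the test over all genes. Among the 7 members, the highest upper bound of a 95% interval was 0.60 against alone, or 1.51-fold, and 0.63 against B cells, or 1.55-fold. These intervals are not adjusted for the number of genes. The smallest rise that did pass over all genes was 0.51 against alone, in Dhx58, and 0.75 against B cells, in Cmpk2.

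**Figure D2:**
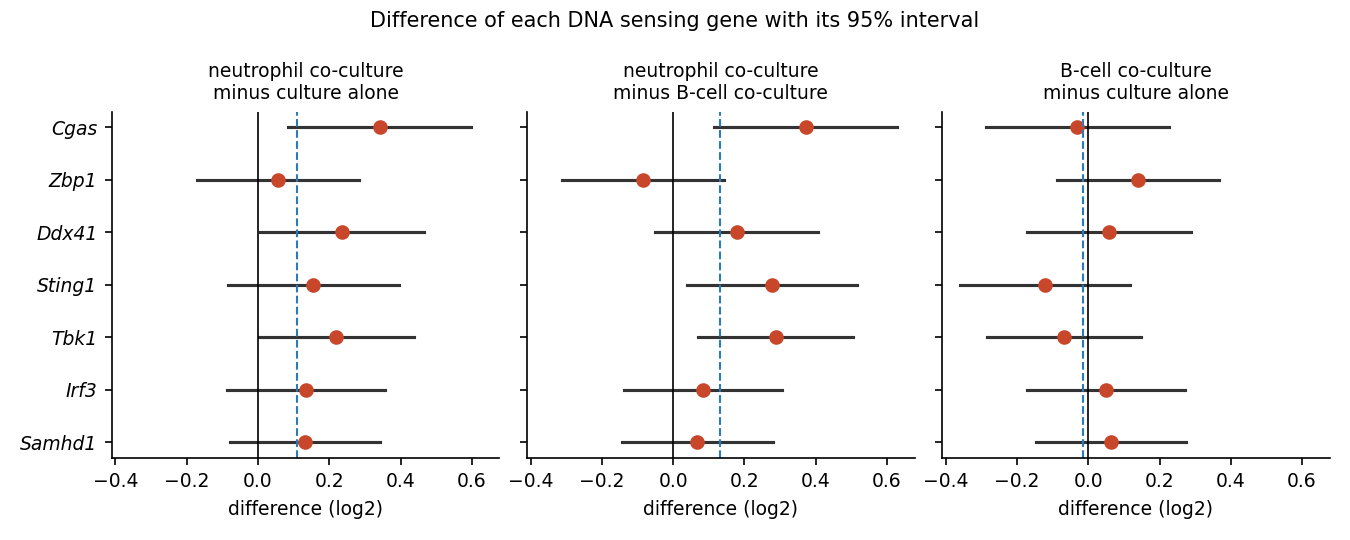
Difference of each measured gene in the 3 comparisons (x axis, log2; y axis, gene), with points for the estimate, bars for its unadjusted 95% interval, and a dashed line at the median of all genes at or above median brightness. The intervals of Cgas and Tbk1 lie above 0 in both neutrophil comparisons, and those of Zbp1, Irf3 and Samhd1 span 0 in all 3 comparisons.

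The members' shared direction has to be read against the same shift in other genes. Against culture alone 7 of 7 members had both neutrophil arrays above both alone arrays, as did 35.6% of all genes and 60.1% of genes at or above the median brightness (mean over the 6 arrays). Against B cells the count was 5 of 7, beside 30.0% of all genes and 52.1% of the brighter genes. In B-cell co-culture against alone 2 members lay wholly higher and 1 wholly lower, beside 13.5% and 13.5% of all genes. The median difference of the members was 0.16 against alone and 0.18 against B cells, where all genes had a median of 0.021 and 0.011, brighter genes 0.109 and 0.131, and dimmer genes -0.095 and -0.120.

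Of the 7 members, 5 belonged to the brighter genes and 2, Cgas and Zbp1, to the dimmer ones. Among brighter genes, 11.9% had a difference against alone at least as high as that of Ddx41, 15.2% as that of Tbk1, 32.9% as that of Sting1, 40.5% as that of Irf3 and 41.3% as that of Samhd1. Against B cells these shares were 34.0% for Ddx41, 9.17% for Tbk1, 10.7% for Sting1, 64.3% for Irf3 and 68.5% for Samhd1. Among dimmer genes, 1.20% had a difference at least as high as that of Cgas against alone and 0.929% against B cells, and for Zbp1 the shares were 18.7% and 41.8%. These shares are descriptions without a test. Quantile normalisation of the deposited values, which gives every array the same distribution, gave 0.42 for Cgas against alone (adjusted p = 0.202), and lowered Sting1 to 0.088, Tbk1 to 0.14, Ddx41 to 0.16, Irf3 to 0.069 and Samhd1 to 0.066. It raised Zbp1 to 0.11. With the mean of 1394 olfactory and vomeronasal receptor genes of each array as a covariate, which moved with the groups, the differences against alone were -0.046 for Cgas, -0.14 for Sting1 and 0.028 for Tbk1. With that covariate 0 of all genes passed in any comparison. Because it moved with the groups, the fit cannot well separate a group difference from it, and no conclusion is drawn from these values.

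**Figure D3:**
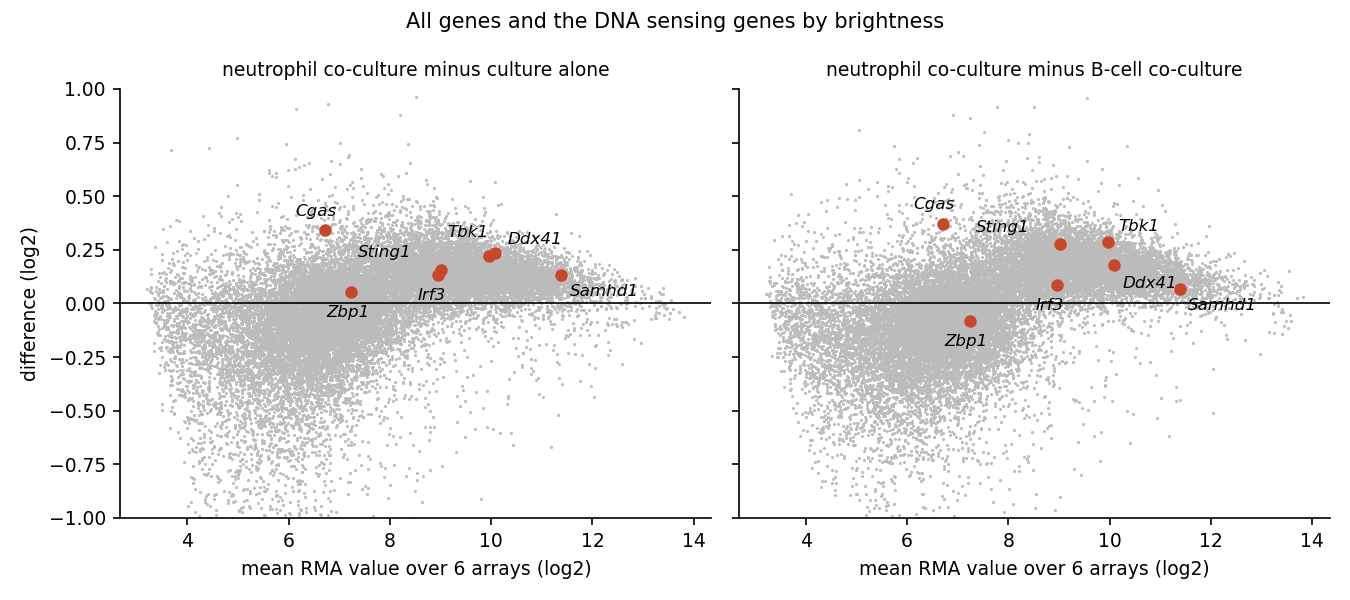
Difference of every gene (grey) and of the 7 measured members (red) in the 2 neutrophil comparisons (y axis, log2, drawn from -1 to 1) against the mean value over the 6 arrays (x axis, log2), with 205 and 116 genes beyond the drawn range. Brighter genes lie mostly above 0 and dimmer genes mostly below it, and Cgas lies above most genes of similar brightness.

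The comparison with B cells also rested on which B-cell array was used. B-cell replicate 1 resembled neutrophil replicate 1 across genes (r = 0.996) more than it resembled B-cell replicate 2 (r = 0.992). Without B-cell replicate 1, with the lone B-cell array assumed to vary like the other groups, 3 of 7 members passed as higher with neutrophils, beside 11.7% of all genes. These were Cgas at 0.50 (adjusted p = 0.0230), Tbk1 at 0.36 (adjusted p = 0.0323) and Sting1 at 0.37 (adjusted p = 0.0411). Without B-cell replicate 2 their differences were 0.24, 0.22 and 0.18, with adjusted p of 0.511, 0.510 and 0.596, and 0 of 7 passed.

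Transcripts of the partner cells were checked, because neutrophils and other myeloid cells also use this route. Of 21 fixed neutrophil markers, all measured, 5 rose in neutrophil co-culture against alone (Ngp, Retnlg, Lcn2, S100a8 and Elane) and 1 against B cells (Ngp). Of all genes, 0.131% rose against alone and 0.0316% against B cells. The mean of the list was 6.48 and 6.55 alone, at 6.53 and 6.63 beside B cells and at 6.86 and 6.90 beside neutrophils. Ngp stood at 5.57 and 5.76 alone, at 5.93 and 6.11 beside B cells and at 7.27 and 7.70 beside neutrophils, while S100a9 overlapped between the groups, at 7.14 and 7.59, 7.25 and 7.62, and 7.47 and 7.56. Ly6g, the surface marker that defines neutrophils, lay below the lower quartile of genes on all 6 arrays, with the neutrophil arrays highest. Of the 21 markers, 19 had a positive difference against alone (median 0.222) and 16 against B cells (median 0.184). All genes had medians of 0.021 and 0.011. Between B-cell co-culture and culture alone 16 of the 21 were positive as well, with a median of 0.062. Of 11 measured monocyte markers 1 rose in both neutrophil comparisons (Ly6c2), and 0 of 10 B-cell markers and 0 of 8 T and NK cell markers changed. Of the 10 B-cell markers, 7 lay above the median gene on every array, also in cells cultured alone. Carried B-cell RNA would be hard to see in those 7. Ms4a1, Cr2 and Fcer2a lay below the median on every array, and differed by 0.0022, -0.018 and 0.031 between B-cell co-culture and culture alone. The part of carried neutrophil RNA in the members' differences was not tested. In a sorted bulk sample, a few cells of another type with much of a transcript and many cells with slightly more of it cannot be told apart. Of 8 plasma cell markers, 5 lay above the median gene on each array. The others, Prdm1, Tnfrsf17 and Jchain, lay below it on every array, while B-cell genes such as Pax5 and Cd79a stood high. The list mean was 8.93 to 9.02 on the 6 arrays, with 0 of 8 changed in any comparison.

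The genes of like pattern were sought over the 6 arrays among 1900 genes with an SD of at least 0.2, without members or predicted and clone genes, by Pearson correlation. Closest to Cgas were Hs2st1 (r = 0.998), Txnl4b (r = 0.997) and Fahd1 (r = 0.995), and closest to Sting1 were Hif1an (r = 0.997), Stk40 (r = 0.991) and Zfp940 (r = 0.990). These are descriptions over 6 arrays that share the group structure and the brightness shift: 240 of the 1900 genes correlated with Cgas above 0.9 and 150 with Sting1.

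Around the members, 130 further genes of the pathway were listed in 6 groups by role, of which 113 were measured. The lists were drawn up with earlier results of these data known. The counts below therefore describe the listed genes and are not evidence of an excess in the pathway. In neutrophil co-culture against alone 3 rose (Usp18, Ifi214 and Oasl1) and 1 fell (Ifi205), beside 0.131% and 1.36% of all genes. Against B cells 1 rose (Usp18) and 0 fell, beside 0.0316% and 0.0180% of all genes. In B-cell co-culture against alone 0 changed in limma, with 4 at an unadjusted p under 0.05, and 0 with any other setting tried. With neutrophils, 16 were higher and 5 lower against alone at such a p, and 16 higher and 8 lower against B cells. Among all 22180 genes, 3923 had such a p against alone, 4449 against B cells and 869 between B cells and alone. These figures for all genes also stand beside the counts of each list below. The median over the 113 genes was 0.13 against alone and 0.12 against B cells, beside 0.109 and 0.131 for brighter genes, to which 88 of the 113 belonged. The count of 4 became 2 with quantile normalisation, 1 without neutrophil replicate 2, and 0 without alone replicate 1, without alone replicate 2, with all probe sets tested or with the receptor covariate. Usp18 against B cells, with an adjusted p of 0.0280, passed without B-cell replicate 1 but not without any other single array (adjusted p from 0.0892 to 0.353).

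**Figure D4:**
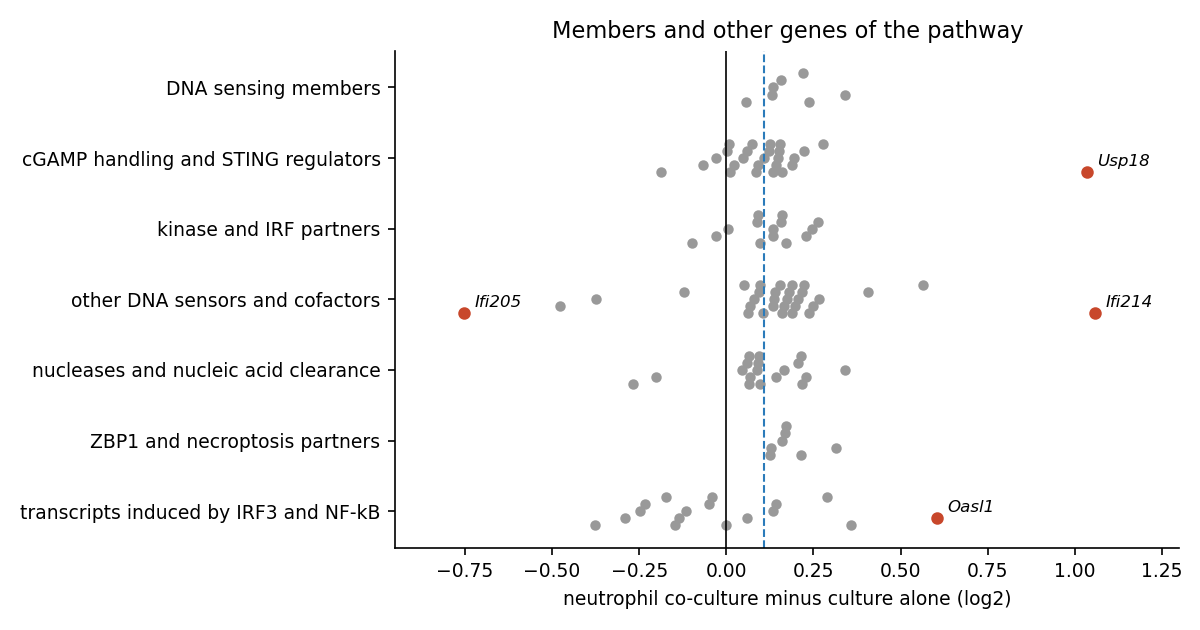
Difference between neutrophil co-culture and culture alone (x axis, log2) for the 7 members and the 113 other measured genes, grouped by role (y axis). Red points passed the test and are named, grey points did not, and the dashed line marks the median of brighter genes. Most points gather around that line, apart from Usp18, Ifi214, Oasl1 and Ifi205.

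Of 26 measured genes that handle cGAMP or regulate STING, 1 rose and 0 fell against alone, and 1 rose and 0 fell against B cells. At an unadjusted p under 0.05 in limma, 2 were higher and 0 lower against alone, and 5 higher and 1 lower against B cells. Usp18, which removes ISG15 from proteins, restrains the interferon receptor and is described as a regulator of STING, stood at 7.33 and 7.47 alone, at 7.58 and 7.45 beside B cells and at 8.42 and 8.45 beside neutrophils. The neutrophil arrays were clear of the other 4, with a difference of 1.03 ± 0.10 against alone (adjusted p = 0.00862) and 0.92 ± 0.10 against B cells. Ifi35, an interferon-induced protein, stood 0.28 higher against alone (adjusted p = 0.202) and 0.52 higher against B cells (adjusted p = 0.121), and did not pass. Enpp1, which hydrolyses cGAMP outside cells, was not analysed here.

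Of 14 measured kinase and IRF partners, 0 passed in any comparison in limma, with 2 higher at an unadjusted p under 0.05 against alone, 0 against B cells, and 1 lower in B cells against alone. The differences against alone were 0.26 for Rela, the p65 subunit of NF-kB, 0.25 for Tank, a scaffold of TBK1, 0.16 for Irf7, the amplifying interferon regulatory factor, and 0.0060 for Ikbke, the kinase closest to TBK1, with adjusted p of 0.232, 0.357, 0.416 and 0.981. Rela and Tank had the largest differences of the group.

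Of 31 other DNA sensors and cofactors, 1 rose and 1 fell against alone and 0 passed against B cells. At an unadjusted p under 0.05 in limma, 7 were higher and 3 lower against alone, and 6 higher and 1 lower against B cells. The gene that rose and the gene that fell belong to the interferon-inducible p200 family. Its members are close copies, so their probe sets may share signal. Ifi214 stood at 6.41 and 6.58 alone, at 6.67 and 6.68 beside B cells and at 7.73 and 7.38 beside neutrophils, a difference of 1.06 ± 0.13 against alone (adjusted p = 0.0176) and 0.88 ± 0.13 against B cells (adjusted p = 0.0979). Ifi205 ran the other way, at 6.60 and 6.68 alone, at 6.25 and 6.26 beside B cells and at 6.07 and 5.70 beside neutrophils, with a difference of -0.75 ± 0.13 against alone (adjusted p = 0.0349). Part of that fall was also present beside B cells. B-cell co-culture minus culture alone was -0.38, the lowest of the list, and did not pass. Both neutrophil arrays lay below both B-cell arrays, and that difference did not pass either. The neutrophil values of Ifi205 lay below the lower quartile of genes. Aim2, the inflammasome sensor of DNA, stood 0.19 higher against alone (adjusted p = 0.365).

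Of 18 nucleases and genes of nucleic acid clearance, 0 passed in any comparison in limma, with 2 higher against alone and 2 higher and 1 lower against B cells at an unadjusted p under 0.05. Adar, which edits double-stranded RNA, had the largest difference, 0.34 ± 0.10 against alone (adjusted p = 0.153) and 0.38 ± 0.10 against B cells (adjusted p = 0.154). Dnase2b, a lysosomal nuclease gene, stood at -0.27 ± 0.15 (adjusted p = 0.373) and Rnaseh2a, the catalytic subunit of RNase H2, at 0.046 ± 0.10 (adjusted p = 0.801) against alone. Dnase2a shares its probe sets with other genes and has no value here.

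Of 7 partners of ZBP1 in necroptosis and apoptosis, 0 passed in any comparison in limma, with 0 against alone and 1 against B cells at an unadjusted p under 0.05. Casp6 stood 0.31 higher against alone (adjusted p = 0.349), Casp8 0.22 higher (adjusted p = 0.304) and Ripk3, the kinase that ZBP1 engages, 0.17 higher (adjusted p = 0.445).

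Of 17 transcripts that IRF3 and NF-kB induce, 1 rose and 0 fell against alone, and 0 passed against B cells. At an unadjusted p under 0.05 in limma, 3 were higher and 2 lower against alone, and 2 higher and 5 lower against B cells. Of the 17, 11 belonged to the dimmer genes. The median of the list was -0.050 against alone and -0.194 against B cells, beside 0.021 and 0.011 for all genes and -0.095 and -0.120 for dimmer genes. Oasl1, an interferon-induced relative of the oligoadenylate synthetases, stood at 7.48 and 7.68 alone, at 7.66 and 7.75 beside B cells and at 8.16 and 8.21 beside neutrophils, a difference of 0.61 ± 0.10 (adjusted p = 0.0348). Ifnb1, the gene of interferon beta and the main product of the route, stood at 5.51 and 5.76 alone, at 5.77 and 5.81 beside B cells and at 5.59 and 5.59 beside neutrophils. It lay below the lower quartile of genes on all 6 arrays, with differences of -0.042 ± 0.11 against alone (adjusted p = 0.843) and -0.20 ± 0.11 against B cells (adjusted p = 0.314). Ifit3, which IRF3 can induce directly, stood at -0.38 ± 0.20 against alone (adjusted p = 0.345) and -0.53 ± 0.20 against B cells (adjusted p = 0.210).

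Promoter windows of 250 bases before to 50 after the start, from RefSeq on GRCm38.p6, were searched on both strands for the core of the interferon response element (GAAA, any 2 bases, GAAA) and for the gamma-activated site, TTCNNNGAA. The first was in 3.44% and the second in 8.30% of 32851 windows. Of the members, 5 had a window (Cgas, Ddx41, Tbk1, Irf3 and Samhd1): 0 held the first motif and 1, Samhd1, held the second. Of the 4 pathway genes that changed, which were added to the search after their values were seen, 3 had a window, and Ifi214 (1 match) and Ifi205 (2 matches) held the first motif. The match of Ifi205 before the start site is shown. The stretches around these matches are shown because the gene that rose and the gene that fell carry nearly the same element, while Samhd1 shows the sole match among the members. Each reads 5′ to 3′ on the gene's strand, and capitals mark the motif.
Ifi214 (chr1:173536002-173536061, minus strand, motif from base -79): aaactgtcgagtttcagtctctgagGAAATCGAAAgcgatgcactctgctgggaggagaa
Ifi205 (chr1:174031855-174031914, minus strand, motif from base -134): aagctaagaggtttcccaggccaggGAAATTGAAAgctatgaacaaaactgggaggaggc
Samhd1 (chr2:157135298-157135346, minus strand, motif from base -235): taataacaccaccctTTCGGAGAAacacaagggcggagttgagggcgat
Positions are counted from the start site, with the base before it as -1. The matches are descriptions of letters in these windows and say nothing of binding. Ifi214 rose and Ifi205 fell with the same core motif, and Oasl1 rose with 0 matches of either motif in its window. Usp18 had no window. Whether either motif bears on these changes was not tested.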

How the data were processed

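The deposited table held log2 values per probe set that the authors computed by RMA (source: per the submitters' processing notes), a method that corrects background, normalises between arrays and summarises probes. The array's software version and annotation build are not given in the sources used here, and the log2 scale was read from the values. Of 41345 probe sets, 23521 carried 1 gene symbol, 1814 several and 16010 none in the platform annotation. Where a gene had several single-gene probe sets the brightest over 6 arrays was kept, and members were matched through older symbols in RefSeq's GRCm38.p6 gene table. limma 3.58.1 (R 4.3.3; lmFit, eBayes, two-sided) fitted 3 group means on all 6 arrays for 22180 genes, with 3 residual and 5.55 prior degrees of freedom, and Benjamini-Hochberg adjustment over all genes. The procedure was tested on simulated data. Plots were drawn with matplotlib 3.10.9. The number of arrays limits the precision.

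The members and gene lists were chosen with earlier results of these data known. Named were all members, each pathway gene that passed, the 2 with the largest difference against alone where a list had none passing in a comparison, and 8 fixed genes, of which Enpp1 and Dnase2a have no value here. Alternatives were a brightness filter, other eBayes settings, quantile normalisation, median centring, averaged or all probe sets, 4-array fits, a replicate block, leaving out each array, a threshold of 0.10 and the receptor mean as a covariate, the last taken from an earlier analysis.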

Additional observations from a re-analysis of the deposited data

How the results depend on the processing

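The count of 0 members changed held in all 3 comparisons under every alternative run, except against B cells without one array, where leaving out each array gave 0 to 3 (3 without B-cell replicate 1). Pathway genes changed against alone numbered 4, and 2 among brighter genes, 2 with quantile normalisation, 0 with all probe sets, 0 with the receptor covariate and 0 to 6 without each array (0 without either alone array, 1 without neutrophil replicate 2). Against B cells they numbered 1, and 3 among brighter genes, 2 with trend and robust eBayes, 4 with centred arrays, 2 at a threshold of 0.10, 0 with quantile normalisation, all probe sets, 4 arrays, the replicate block or the receptor covariate, and 0 to 30 without each array (30 without B-cell replicate 1, 0 without any other). All genes called against B cells split into 7 higher and 4 lower, and into 45 and 90 with centred arrays, 13 and 20 with trend and robust eBayes, 41 and 50 among brighter genes, and 2605 and 2848 without B-cell replicate 1, while leaving out each other array gave 1 to 9 in all. Against alone they split into 29 and 302, into 222 and 1116 with 4 arrays, 11 and 59 with quantile normalisation, 79 and 502 with centred arrays, and none with all probe sets or the receptor covariate, and leaving out each array gave 5 to 1338 in all. Differences that turned sign did not pass before or after. With the receptor covariate these were, against alone, Cgas at -0.046, Sting1 at -0.14, Irf3 at -0.066, Samhd1 at -0.0073, Tank at -0.11, Casp6 at -0.47, Casp8 at -0.0094, Ifit3 at 0.51, Ikbke at -0.22, Aim2 at -0.028, Rnaseh2a at -0.16 and Ripk3 at -0.23, and against B cells Zbp1 at 0.071, Irf3 at -0.067, Samhd1 at -0.038 and Ifit3 at 0.15. With quantile normalisation they were Ifnb1 at 0.084 and Rnaseh2a at -0.025 against alone, and Irf3 at -0.012 and Samhd1 at -0.020 against B cells. With centred arrays they were Ifnb1 at 0.0245 against alone and Zbp1 at 0.0033 against B cells. Leaving out each array, values that turned sign ranged against alone from -0.171 to 0.087 for Ifnb1 and from -0.062 to 0.074 for Ikbke, against B cells from -0.172 to 0.0043 for Zbp1, and in B cells against alone from -0.160 to 0.099 for Cgas, -0.0059 to 0.122 for Ddx41, -0.139 to 0.0036 for Tbk1 and -0.029 to 0.127 for Irf3. The cause was not tested. The replicate number is only a shared number: deviations of same-numbered arrays correlated at -0.074, 0.065 and -0.151 between groups, and the replicate block left 0 members changed in each comparison and moved pathway genes from 1 to 0 against B cells, where Usp18 had an adjusted p of 0.0541.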
